A study of Mus musculus with 9 samples.

Results

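Matricellular proteins are secreted proteins that sit in the extracellular matrix and act on cells through surface receptors more than they give the matrix its strength. The group examined here has 10 genes, taken as a fixed list of symbols and matched to the Ensembl identifiers of the deposited table of 55416 genes. All 10 matched 1 gene each. They are *Fn1* (fibronectin), *Postn* (periostin), the tenascins *Tnc* and *Tnxb*, the thrombospondins *Thbs1*, *Thbs2*, *Thbs3* and *Thbs4*, *Sparc* (osteonectin) and *Spp1* (osteopontin). Reads were counted in 9 RNA-Seq libraries of cultured AdvSca1-SM cells, which are Sca1-positive progenitors of smooth muscle origin sorted by YFP and Sca1 from arteries (aorta and carotid) pooled from SM22α-Cre-YFP mice aged 8 weeks. The YFP label marks cells in which the SM22α promoter has at some time driven Cre. Every group had 3 libraries, was held for 72 h and received 0.1% DMSO. The Stem group got DMSO alone, the TGF-β group also got 5 ng/mL of TGF-β, and the Both group got 5 ng/mL of TGF-β with 50 μM of PFI-3, an inhibitor of the Brg1 bromodomain. The stimulated cells were moved to DMEM with little serum, and the methods of the study keep Stem cells in stem cell medium, so that medium and TGF-β cannot be told apart between Stem and TGF-β. The cultures came from pooled mice. The paper counts 3 independent replicates per condition, and the labels do not say whether libraries of a group came from separate cultures. The p-values therefore measure the spread between these libraries.

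In fibrosis these proteins are known as part of the matrix that activated fibroblasts lay down. Fibronectin is assembled into fibrils through integrin α5β1 and carries other matrix proteins, so that the definition above covers it only in part. Thrombospondin-1 can release TGF-β from its latent form, and periostin and tenascin-C are classical products of wound fibroblasts, whereas tenascin-X is a tenascin of resting connective tissue. Total counts ran from 35686291 to 47741128 per library, and the 10 genes together took from 1.26% to 1.28% of the counts in Stem, from 2.2% to 2.27% in TGF-β and from 1.77% to 1.91% in Both. Their summed share was thus higher in every TGF-β and Both library than in any Stem library. Most of it was *Fn1*, *Thbs1*, *Sparc* and *Thbs2*, so that the sum does not stand for each member. The shares of *Fn1*, *Thbs1* and *Sparc* were likewise higher outside Stem. That of *Thbs2* was lower, at 0.206% to 0.220% in Stem and 0.156% to 0.172% in the other libraries. Stem replicate 2 stood apart in 1 gene that has no symbol (ENSMUSG00000119584), which took 4.70% of its counts against 0.364% to 2.32% in the other 8 libraries, and values without this library are given where they differ in call. The progenitor markers *Ly6a*, *Cd34*, *Pdgfra* and *Scara5* were present in Stem, with a summed level of 50475 to 58767 normalized counts (read counts scaled to a common library size). In TGF-β that sum was 6361 to 6638 and in Both 6784 to 7423. Most of the sum was *Pdgfra*, with means of 45657, 5438 and 6268 in Stem, TGF-β and Both. The means of the other markers were lower in Both than in TGF-β. *Ly6a* went from 941 to 734, *Cd34* from 20.8 to 13.4 and *Scara5* from 92.3 to 41.3. Of these falls, that of *Scara5* passed the test described below (edgeR adjusted p = 0.0383). Those of *Ly6a* and *Cd34* did not (edgeR adjusted p = 0.0859 and 0.234). Of the 7 macrophage and blood markers, *Ptprc*, *Adgre1* and *Tyrobp* had at most 3 counts in every library, and the sum of the 7 was 507 to 610 in Stem, 318 to 349 in TGF-β and 445 to 452 in Both. The sum of 6 endothelial markers was 115 to 249, 59.4 to 93.7 and 52.7 to 70.1 in the same order, and that of 5 mature smooth muscle markers was 3278 to 4240, 2982 to 3479 and 2807 to 2936. Both sums held opposite moves between Stem and TGF-β. The mean of *Kdr* went from 0.721 to 26.1 and that of *Emcn* from 104 to 8.27. In the smooth muscle sum, which was mostly *Smtn*, the mean of *Myocd* went from 0.361 to 19.9 and that of *Myh11* from 263 to 88.3. The part of these cell types in the results was not tested. Of 6 hepatocyte markers, checked because the extraction text of the labels speaks of liver tissue, 5 had at most 3 counts in every library and *Apoa2* had 3 to 13. In bulk RNA, fewer cells of a type and less RNA per cell cannot be told apart.

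Between Stem and TGF-β, all 9 of the 10 genes with enough counts to be tested changed. *Postn*, *Sparc*, *Spp1*, *Thbs1* and *Fn1* rose, by 1.70-fold to 7.52-fold, and *Tnxb*, *Thbs3*, *Tnc* and *Thbs2* fell, from 1.23-fold lower to 36.8-fold lower. All 9 libraries entered a single quasi-likelihood fit in edgeR, with Benjamini-Hochberg adjustment over the 14879 genes tested and a threshold of 0.05 on the adjusted p. Over all genes tested, 37.3% rose and 37.7% fell by this rule, so that a change in this comparison was common. With a further minimum of 2-fold, as in the methods of the study, 4 of the 9 were higher, against 10.6% of all genes, and 1 was lower, against 14.5%. The median log2 fold change of the 9 was 0.76, against -0.0027 over all genes tested. When libraries were scaled by total counts, the median of all genes moved to -0.12, and no member changed direction or call.

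**Figure D1:**
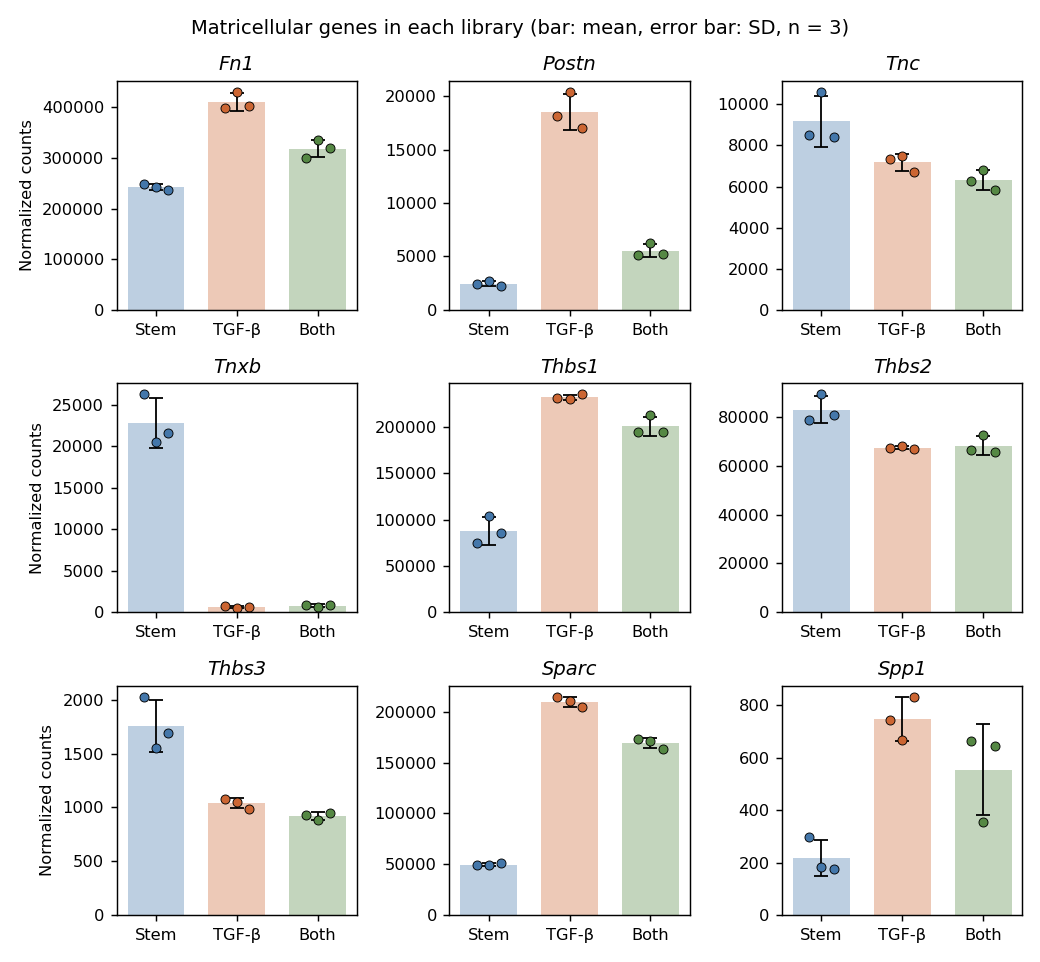
Normalized read counts of the 9 tested matricellular genes in the Stem, TGF-β and Both groups, with points for libraries, bars for group means and error bars for the SD (n = 3). *Postn* was at 17015 to 20382 in TGF-β and at 5163 to 6244 in Both, whereas *Tnxb* was at 20531 to 26230 in Stem and at 510 to 931 in the other groups.

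*Fn1* (ENSMUSG00000026193), the fibronectin gene, had 247783, 241598 and 235891 normalized counts in the Stem libraries, 397848, 430084 and 402222 in TGF-β, and 300269, 334900 and 320100 in Both. The 3 groups did not overlap, with Both between the other groups. *Fn1* was 1.70-fold higher in TGF-β than in Stem (log2 fold change 0.76, standard error 0.0522, edgeR adjusted p = 5.18e-08). It fell with PFI-3 by 0.36 on the log2 scale (standard error 0.0519, edgeR adjusted p = 0.00115), and was still above Stem in Both by a log2 fold change of 0.40 (edgeR adjusted p = 2.17e-05). Counts per gene do not separate the splice forms of fibronectin.

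*Postn* (ENSMUSG00000027750) encodes periostin, which binds integrins and collagen. It had 2401, 2727 and 2258 normalized counts in the Stem libraries, 18173, 20382 and 17015 in TGF-β, and 5163, 6244 and 5246 in Both. The groups were far apart, and Both lay nearer to Stem than to TGF-β on the scale of counts. *Postn* was 7.52-fold higher in TGF-β (log2 fold change 2.91, standard error 0.0947, edgeR adjusted p = 5.72e-11). With PFI-3 it was 3.34-fold lower (log2 fold change -1.74, standard error 0.0897, edgeR adjusted p = 2.09e-06), the only member past the 2-fold minimum in that comparison. The 250 bases before its RefSeq start are shown beside those of *Sparc* and *Tnxb*, since these are genes with a rise and a fall among the members, searched for the SMAD-binding motif CAGAC, the AP-1 motif TGANTCA and the CArG box of SRF on both strands. Capitals mark the matches, and no match of 1 motif overlapped another. The sequences are from RefSeq on build GRCm38.p6, printed 5′ to 3′ on the strand of the gene, whereas the reads were aligned to GRCm39.
Postn, chr3:54360857-54361106 (+ strand): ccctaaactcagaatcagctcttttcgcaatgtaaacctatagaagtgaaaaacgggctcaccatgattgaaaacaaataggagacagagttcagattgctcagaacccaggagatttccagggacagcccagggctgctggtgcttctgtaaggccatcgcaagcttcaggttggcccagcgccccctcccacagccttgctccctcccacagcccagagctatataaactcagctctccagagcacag
Sparc, chr11:55420081-55420330 (- strand): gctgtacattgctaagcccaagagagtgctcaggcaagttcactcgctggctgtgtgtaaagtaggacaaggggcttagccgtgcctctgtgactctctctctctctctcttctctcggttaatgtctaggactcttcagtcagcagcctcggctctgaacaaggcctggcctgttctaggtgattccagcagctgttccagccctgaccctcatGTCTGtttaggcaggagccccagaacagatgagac
Tnxb, chr17:34670285-34670534 (+ strand): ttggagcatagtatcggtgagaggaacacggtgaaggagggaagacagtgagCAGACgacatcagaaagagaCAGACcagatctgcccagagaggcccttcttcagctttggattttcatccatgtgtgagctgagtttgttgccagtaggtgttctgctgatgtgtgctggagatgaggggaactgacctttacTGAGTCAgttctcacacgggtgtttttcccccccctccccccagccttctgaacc

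The window of *Postn* held none of these motifs. That of *Sparc* held 1 CAGAC match, 31 to 35 bases before its RefSeq start, which lies 3103 bases from the start of the gene in GENCODE, and that of *Tnxb* held 2 CAGAC matches and 1 TGANTCA match, the latter 49 to 55 bases before the start. The CAGAC motif was in 42.2% of the 32851 promoter windows of the table, TGANTCA in 6.75% and the CArG box in 1.47%. Windows were found for 8 members, of which 5 held CAGAC. *Postn*, *Tnc* and *Spp1* had 2 windows each, and only the window nearest to the start of the gene in GENCODE was searched. A stretch after the start of the *Thbs2* window was not found in its annotated transcripts, unlike for the other members with windows. *Spp1*, *Thbs2* and *Thbs4* held 2 CAGAC matches each, and *Thbs3* and *Tnc*, like *Postn*, held no match of the 3 motifs. The matches describe the letters of the windows and were not compared with binding data.

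The 2 tenascins both fell, to very different degrees. *Tnxb* (ENSMUSG00000033327), tenascin-X, had 26230, 20531 and 21613 normalized counts in the Stem libraries, 717, 510 and 632 in TGF-β, and 899, 626 and 931 in Both. Every Stem library was far above the rest, and the libraries of TGF-β and Both overlapped. The fall between Stem and TGF-β was 36.8-fold (log2 fold change -5.20, standard error 0.164, edgeR adjusted p = 4.29e-11). *Tnc* (ENSMUSG00000028364), tenascin-C, had 8496, 10596 and 8430 normalized counts in the Stem libraries, 7329, 7506 and 6726 in TGF-β, and 6288, 6811 and 5817 in Both. The Stem libraries were the highest, without overlap, and TGF-β and Both overlapped. It was 1.28-fold lower in TGF-β than in Stem (log2 fold change -0.35, standard error 0.0856, edgeR adjusted p = 0.00259). Without Stem replicate 2, its highest library, the log2 fold change of *Tnc* was -0.23 (edgeR adjusted p = 0.00381).

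Among the thrombospondins, *Thbs1* and *Thbs2* encode proteins that form trimers, whereas *Thbs3* and *Thbs4* encode proteins that form pentamers. *Thbs1* (ENSMUSG00000040152) had 74530, 104462 and 85204 normalized counts in the Stem libraries, 230899, 230197 and 235076 in TGF-β, and 194510, 212568 and 194480 in Both. The TGF-β libraries were closely spaced above all others, and Both was above Stem. *Thbs1* was 2.64-fold higher in TGF-β than in Stem (log2 fold change 1.40, standard error 0.0959, edgeR adjusted p = 5.29e-08). *Thbs2* (ENSMUSG00000023885), a close relative, had 78709, 89059 and 80760 in Stem, 67247, 68104 and 66754 in TGF-β, and 66531, 72429 and 65420 in Both. It was lower in each TGF-β library than in each Stem library, and TGF-β and Both overlapped. Its fall was small, 1.23-fold (log2 fold change -0.30, standard error 0.0541, edgeR adjusted p = 3.07e-04). *Thbs3* (ENSMUSG00000028047) had 2028, 1548 and 1695 in Stem, 1079, 1054 and 987 in TGF-β, and 929, 880 and 950 in Both, and was 1.69-fold lower in TGF-β than in Stem (log2 fold change -0.76, standard error 0.0841, edgeR adjusted p = 4.67e-06). In the GENCODE annotation, 6.59% of its exon bases lie opposite to *Mtx1*, and the strand setting of the counting is not given in the sources used here. *Thbs4* (ENSMUSG00000021702) was the member left untested, with 0 reads in each Stem library, 2, 0 and 0 in TGF-β, and 2, 3 and 1 in Both. A count of 0 allows up to 3 reads in a library by counting error alone, so that *Thbs4* was at the limit of detection in all 3 groups and no fold is given.

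*Sparc* (ENSMUSG00000018593) encodes a collagen-binding glycoprotein that takes part in collagen assembly. It had 48967, 48735 and 50824 normalized counts in the Stem libraries, 214297, 210599 and 204481 in TGF-β, and 173263, 171762 and 163832 in Both. The 3 groups were widely separated and the libraries within each close together. The gene was 4.24-fold higher in TGF-β (log2 fold change 2.08, standard error 0.0436, edgeR adjusted p = 1.59e-12) and fell with PFI-3 by 0.31 on the log2 scale (standard error 0.0419, edgeR adjusted p = 8.89e-04). *Spp1* (ENSMUSG00000029304), osteopontin, a ligand of αv integrins and CD44, had 298, 181 and 174 normalized counts in the Stem libraries, 745, 666 and 833 in TGF-β, and 664, 354 and 647 in Both. All TGF-β libraries were above all Stem libraries, and Both replicate 2 was well under the other two Both libraries. It was 3.42-fold higher in TGF-β (log2 fold change 1.78, standard error 0.239, edgeR adjusted p = 2.56e-05). *Spp1* is also a gene of macrophages. Of the 7 macrophage markers, *Csf1r* and *Cd68* rose as well between Stem and TGF-β (log2 fold changes of 1.41 and 1.86, edgeR adjusted p = 2.07e-04 and 0.00475), to means of 76.1 and 13.2 normalized counts, *Cd14* fell, and *Lyz2* did not pass. The other 3 were at or under 3 reads in every library, and the part of macrophages in the level of *Spp1* was not tested. In the annotation, 18.75% of its exon bases also belong to *Gm42793* on the same strand, and how reads of both were counted is not given in the sources used here.

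Between TGF-β and Both, which differ in PFI-3, the changes were smaller and in fewer genes. By the adjusted p of the fit used above, *Postn*, *Sparc* and *Fn1* fell, and none of the 9 tested members rose. The rise of *Tnxb* passed in 3 of 17 alternatives: without the filter on low counts, with a replicate block, and without Both replicate 2. Some further falls also passed in alternatives, as given below. Over all genes tested, 5.38% fell and 3.54% rose by the adjusted p, and with the 2-fold minimum 0.47% fell and 0.161% rose, against 1 of 9 members (*Postn*) lower and 0 higher. At an unadjusted p below 0.05, 5 members were lower, against 12.5% of all genes, and 1 (*Tnxb*) was higher, against 11.5%, and DESeq2 called the same 3 genes as edgeR. The median log2 fold change of the 9 was -0.21, against -0.0020 over all genes tested.

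The other 6 had log2 fold changes of *Tnxb* 0.41 (95% interval 0.06 to 0.75, edgeR adjusted p = 0.137), *Tnc* -0.19 (-0.38 to -0.0017, edgeR adjusted p = 0.203) and *Thbs1* -0.21 (-0.42 to -0.0051, edgeR adjusted p = 0.196). These intervals do not account for the number of genes tested, which the adjusted p does. For *Thbs2* the value was 0.02 (95% interval -0.10 to 0.13, edgeR adjusted p = 0.899), the narrowest interval of these 6. *Thbs3* had -0.18 (-0.36 to 0.01, edgeR adjusted p = 0.239) and *Spp1* had -0.43 (-0.89 to 0.04, edgeR adjusted p = 0.252), the widest interval of the members. Without Stem replicate 2, which is in neither group of this comparison, *Thbs1* and *Tnc* also passed and the number was 5. That fit had a new estimate of the spread, new scaling and 15155 genes tested in place of 14879. Without Both replicate 2, the rise of *Tnxb* passed as well and the number was 4.

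**Figure D2:**
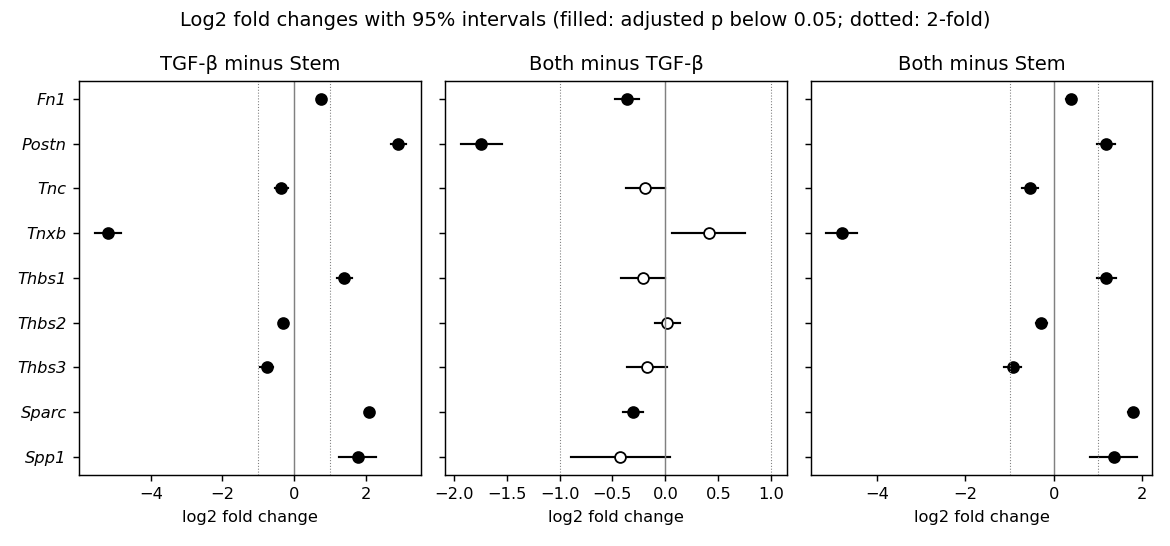
Log2 fold changes of the 9 tested members in the 3 comparisons, with 95% intervals as bars, filled points for an adjusted p below 0.05 and dotted lines at 2-fold. All 9 points are filled against Stem, whereas between TGF-β and Both only those of *Fn1*, *Postn* and *Sparc* are.

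Between Stem and Both, all 9 tested members differed. This comparison shares its Stem libraries with the first one and its Both libraries with the second. Of the 9, 5 were higher and 4 lower, against 36.6% higher and 36.6% lower among all genes. With the 2-fold minimum, 4 were higher, against 9.55% of all genes, and 1 was lower, against 13.2%. *Postn* was 2.25-fold higher in Both than in Stem (log2 fold change 1.17, edgeR adjusted p = 1.83e-07), beside 7.52-fold in TGF-β. *Sparc* was 3.43-fold higher (edgeR adjusted p = 5.85e-12), *Spp1* 2.55-fold (edgeR adjusted p = 2.92e-04) and *Thbs1* 2.28-fold (edgeR adjusted p = 2.53e-07). *Tnxb* was 27.8-fold lower than in Stem (edgeR adjusted p = 7.64e-11). *Thbs3* was lower by 0.93 on the log2 scale, close to the 2-fold minimum, and passed it at -1.01 without Stem replicate 2 and at -1.04 with total counts as the scaling. *Tnc* had a log2 fold change of -0.54 and *Thbs2* of -0.28.

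The spread between replicates differed among the 9 tested members. *Sparc* had the lowest coefficient of variation in Stem and Both, 2.31% and 2.99%, and *Spp1* the highest in those groups, 32.0% and 31.3%. *Thbs1* had 17.2% in Stem and 1.14% in TGF-β. In each of the 3 groups, replicate 2 was the highest library for *Postn*, *Tnc* and *Thbs2* and the lowest for *Tnxb*.

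To compare levels between genes, normalized counts were divided by the exon length in the GENCODE annotation, in kilobases. In Stem, *Fn1* led with 20690 ± 509 normalized counts per kilobase (SD, n = 3), followed by *Thbs1* at 14500 ± 2500, *Sparc* at 13070 ± 302 and *Thbs2* at 11830 ± 783. The Stem libraries of *Thbs1* overlapped with those of *Sparc* and of *Thbs2*, although by this length *Thbs1* was above *Thbs2* within each library. With the longest transcript as length the order of means was *Fn1*, *Sparc*, *Thbs1*, *Thbs2*. By that length *Thbs1* was below *Thbs2* in Stem replicate 1 (ratio 0.95). *Tnxb* followed at 1867 ± 248 and *Tnc* at 1180 ± 159, and *Thbs3*, *Postn* and *Spp1* lay between 132 and 364. In TGF-β, *Sparc* led with 55380 ± 1310, *Thbs1* had 38210 ± 434 and *Fn1* 35090 ± 1500, an order of the latter pair that turned with the longest transcript. *Postn* moved from the eighth place (the seventh with the longest transcript) to the fifth with 2129 ± 197, and *Tnxb* from the fifth to the ninth with 50.7 ± 8.50. In Both, *Postn* had 638 ± 69.2 and *Tnc* 811 ± 64.0, and this order too turned with the longest transcript (1063 and 887).

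**Figure D3:**
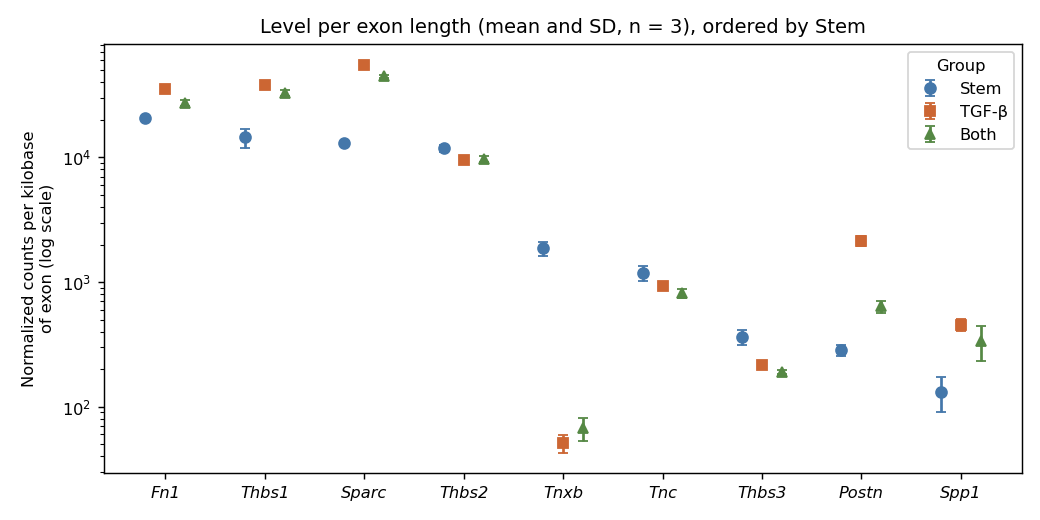
Normalized counts per kilobase of exon on a log scale, as mean and SD over 3 libraries per group, ordered by the Stem level. *Fn1*, *Thbs1*, *Sparc* and *Thbs2* lie between 9620 and 55380 in every group, and *Tnxb* drops from 1867 in Stem to 50.7 in TGF-β.

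Ratios of 2 members within a library do not depend on how libraries are scaled. These pairs were chosen after the values were seen, and are described without a test, since an exact 2-sided permutation test of 3 libraries against 3 cannot give a p below 0.1. Per exon length, *Thbs1* to *Thbs2* stood at 1.09, 1.35 and 1.22 in Stem, 3.96, 3.90 and 4.06 in TGF-β, and 3.37, 3.38 and 3.43 in Both. The groups did not overlap, and the Both libraries were within a narrow band under those of TGF-β. *Tnc* to *Tnxb* was 0.509, 0.811 and 0.613 in Stem, 16.1, 23.1 and 16.7 in TGF-β, and 11.0, 17.1 and 9.81 in Both. Tenascin-X was thus the tenascin with more counts per length in every Stem library, and tenascin-C in every other library. *Postn* to *Fn1* was 0.0130, 0.0152 and 0.0129 in Stem, 0.0613, 0.0636 and 0.0568 in TGF-β, and 0.0231, 0.0250 and 0.0220 in Both, so that *Postn* changed more than *Fn1* in both steps.

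**Figure D4:**
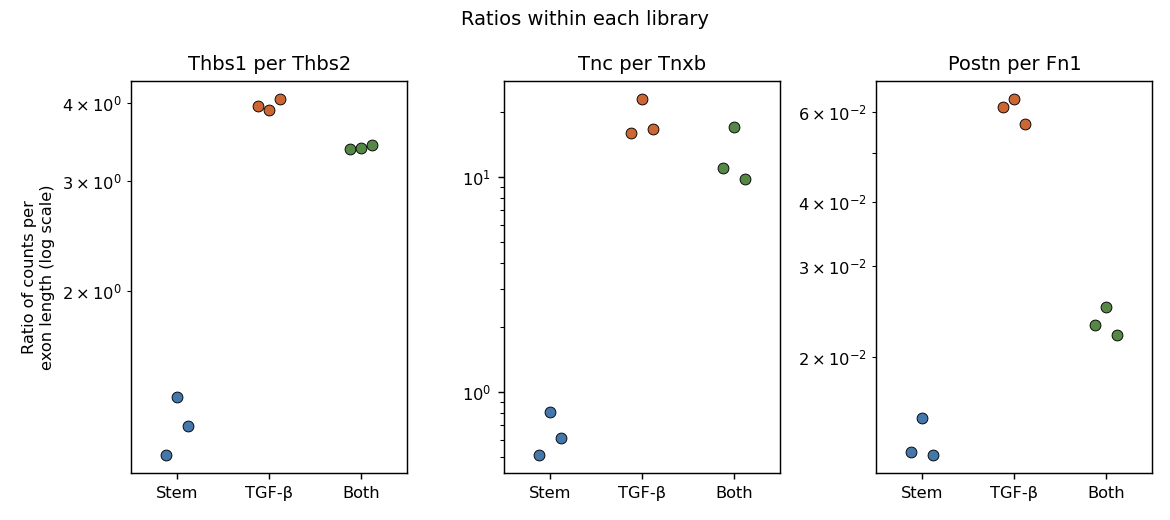
Ratios of counts per exon length between pairs of members within each of the 9 libraries, on log scales, with 1 point per library. *Thbs1* to *Thbs2* is 1.09 to 1.35 in Stem and 3.37 to 4.06 in the other groups, and *Tnc* to *Tnxb* passes from below 1 in Stem to above 9 elsewhere.

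The receptors of these proteins were followed through a list of 19 genes, of which 16 were tested. Between Stem and TGF-β, 9 rose, 4 fell and 3 did not pass the test, with a median log2 fold change of 0.47. Among all genes 37.3% rose and 37.7% fell, so that the share of receptors with a change in either direction was near the background. With the 2-fold minimum, 5 of the 16 were higher, against 10.6% of all genes, and 2 were lower, against 14.5%. *Itga4*, the α4 integrin subunit that binds fibronectin and osteopontin, had 12.6, 10.9 and 7.57 normalized counts in the Stem libraries, 1277, 1287 and 1256 in TGF-β, and 844, 1013 and 817 in Both. The Stem libraries were far below the rest, and those of TGF-β lay above those of Both. The rise between Stem and TGF-β was the largest among the receptors (log2 fold change 6.92, edgeR adjusted p = 1.59e-12). *Itga5*, the α subunit of the main fibronectin receptor, rose by a log2 fold change of 1.38 (edgeR adjusted p = 1.16e-10), and *Itgb3* and *Itgb5*, partners of αv, rose by 2.42 and 1.92 (edgeR adjusted p = 5.30e-10 and 1.60e-12). *Sdc4*, the syndecan that acts with integrins on fibronectin, fell by 1.91 on the log2 scale (edgeR adjusted p = 1.60e-11). *Itga8* fell by 3.40 and *Cd47*, a thrombospondin receptor, by 0.78 (edgeR adjusted p = 1.49e-08 and 4.35e-08). *Stab1*, a scavenger receptor of SPARC, had at most 2 reads in each Stem library and 11 to 19 in TGF-β. The thrombospondin receptor *Cd36* had at most 2 reads in every library and was not tested.

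From TGF-β to Both, 6 of the 16 receptors fell, 3 rose and 7 did not pass, with a median log2 fold change of -0.15, and none passed the 2-fold minimum. Among all genes, 5.38% fell and 3.54% rose. *Itga4* fell by 0.52, *Itga5* by 0.31 and *Itgb3* by 0.38 on the log2 scale (edgeR adjusted p = 0.00135, 0.00170 and 0.0197). *Sdc4* and *Itgb5* rose by 0.22 and 0.15 (edgeR adjusted p = 0.0208 and 0.0388). Between Stem and Both, 10 of the 16 were higher and 6 lower, against 36.6% each way among all genes.

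Relatives of the members by sequence or family, other than the CCN proteins and fibulins, made a list of 14 genes, of which 9 were tested. Between Stem and TGF-β, 2 rose, 5 fell and 2 did not pass, with a median log2 fold change of -0.71. The share with a change in either direction was again near that of all genes (37.3% rose and 37.7% fell). With the 2-fold minimum, none of the 9 was higher, against 10.6% of all genes, and 4 were lower, against 14.5%. *Tgfbi*, the paralog of periostin, fell by 1.81 on the log2 scale (edgeR adjusted p = 2.39e-07), with 5011, 6309 and 5687 in the Stem libraries and 1461, 1947 and 1433 in TGF-β. All its Stem libraries were above all TGF-β libraries, in the direction opposite to *Postn*. *Smoc2* and *Smoc1*, of the SPARC family, fell by 1.14 and 0.71 (edgeR adjusted p = 7.65e-11 and 2.4e-07). *Sparcl1*, of the same family, fell by 3.41 (edgeR adjusted p = 4.47e-06), from a mean of only 26.4 normalized counts to 2.34. In contrast, *Fstl1*, also a relative of SPARC, rose by 0.81 (edgeR adjusted p = 2.53e-08), and *Spock2* did not pass (edgeR adjusted p = 0.280). *Comp*, the fifth thrombospondin, rose by 0.21 (edgeR adjusted p = 0.0449), and *Tnn*, tenascin-W, fell from 469, 41.3 and 193 normalized counts to at most 5.40 (edgeR adjusted p = 1.26e-04). Its Stem libraries differed by more than 10-fold. With PFI-3, *Comp* and *Fstl1* fell by 0.46 and 0.21 (edgeR adjusted p = 0.00730 and 0.0237), none rose, and the median of the 9 was -0.21, against 5.38% falling and 3.54% rising among all genes.

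**Figure D5:**
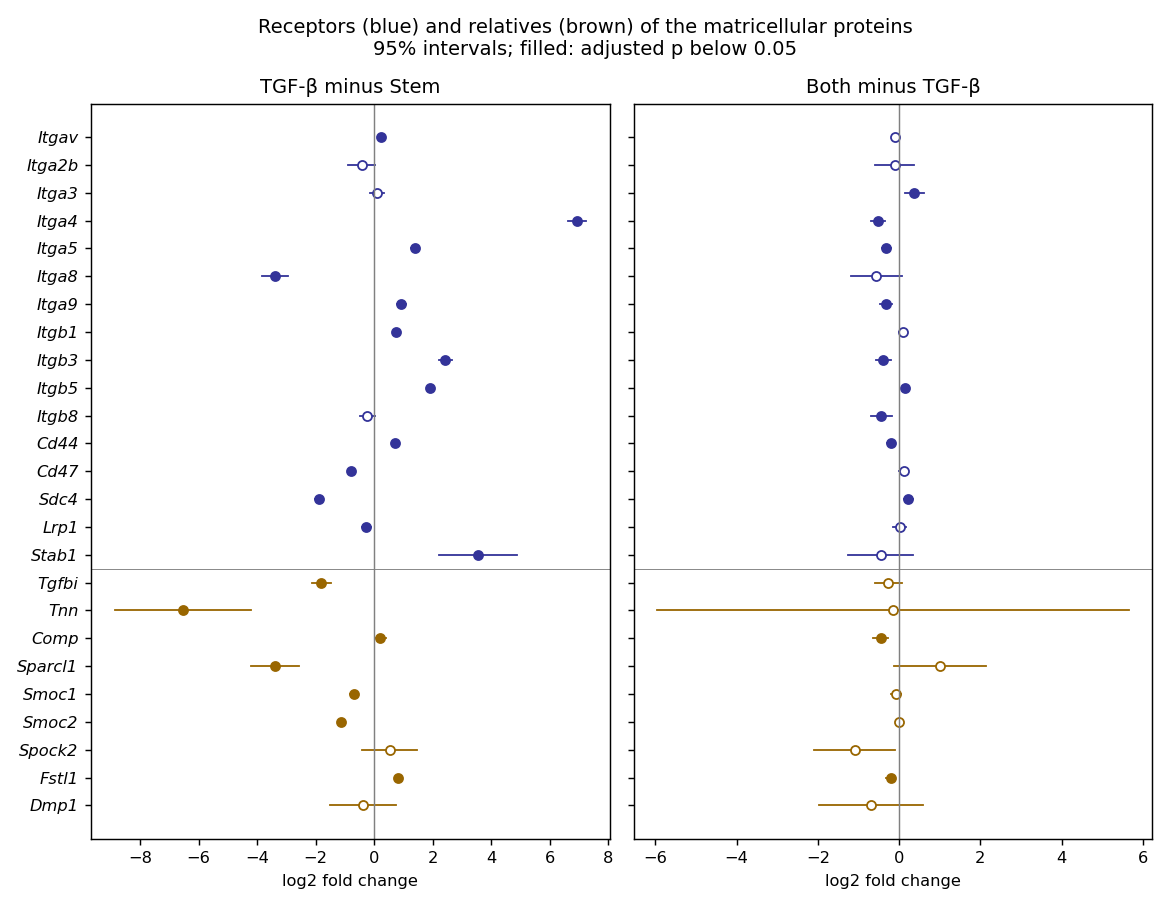
Log2 fold changes with 95% intervals of 16 receptors (blue) and 9 relatives (brown) of the matricellular proteins, as TGF-β minus Stem (left) and Both minus TGF-β (right). Filled points mark an adjusted p below 0.05. *Itga4* at 6.92 is the highest receptor in the left panel, and with PFI-3 the filled points lie between -0.52 and 0.37.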

How the data were processed

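RNA-Seq was measured in 9 libraries, 3 per group, grouped by their titles. The deposited values are raw read counts per Ensembl gene, which the authors did not normalize. The paper's methods give trimming with Flexbar and alignment with STAR, whereas the submitters' processing notes name HISAT2 2.2.1, SAMtools 1.13 and HTSeq 0.11.3, and both give GRCm39. The strand setting and how reads with several alignments were handled are not given in the sources used here. The tests used edgeR 4.0.16 under R 4.3.3, after filterByExpr and TMM scaling, with group as the only term; standard errors and 95% intervals came from the quasi-likelihood F. Normalized counts are counts scaled to a library of 41184338. DESeq2 1.42.0 was an alternative. The pipeline was tested on simulated data.

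The members and gene lists were chosen with earlier results of these data known. The genes named are the members, the listed relatives, receptors and markers, and the 2 genes nearest to each member by Euclidean distance between centred log2(normalized count + 1) profiles, among genes with a mean of at least 100. One of these nearest genes is not reported here. Replicate pairs had a mean chi-square per gene of 5.87 to 125.5, so no library was a copy of another. The pairs with Stem replicate 2 had 103.1 and 125.5, and those without it at most 15.97. Exon lengths came from GENCODE vM21 and promoter windows from RefSeq, both on GRCm38; protein sequences were not analysed here. Depth limits only *Thbs4* and *Spp1* among the members, and limits of detection cover counting error only. Alternatives were other scalings, filters, fold minima and sample sets, a replicate block, another exon length, and each library left out.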

Additional observations from a re-analysis of the deposited data

How the results depend on the processing

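Of 459 alternative values of the 9 tested members over the 3 comparisons, 445 kept their direction and side of the threshold and 13 newly passed it, all between TGF-β and Both. The 1 reversal was that of *Thbs2* between TGF-β and Both, whose log2 fold change ran from -0.0321 (without Both replicate 2) to 0.0444 when libraries were left out in turn. The number of members with an adjusted p below 0.05 between TGF-β and Both was 3, with *Postn*, *Sparc* and *Fn1* passing in each alternative without a fold minimum. It was 7 without the filter on low counts, 6 in a fit of only the 6 libraries compared, and 3 to 5 with 1 library left out. The cause was not tested. With the 2-fold minimum the numbers were 5, 1 and 5 in the 3 comparisons (Stem and TGF-β, TGF-β and Both, Stem and Both), without it 9, 3 and 9, and by edgeR's TREAT, which tests against 2-fold, 2 between Stem and Both. Libraries with the same replicate number did not deviate together throughout (Pearson correlation of -0.06 to 0.18 over 9 pairs across genes, above 0.1 in the 3 pairs of replicate 2), and a library correlated best with its own number in 8 of 18 cases. The labels tie the numbers to no shared culture or day, and the replicate number was not used in the tests above. With the replicate number as a block, 6 members passed between TGF-β and Both, and *Tnc*, *Tnxb* and *Spp1* were added (edgeR adjusted p = 0.0140, 0.00417 and 0.0416). Over all genes, 94 passed the 2-fold threshold between TGF-β and Both, 163 without the filter and 4 by TREAT. By TREAT, 2479 in place of 3739 genes passed between Stem and TGF-β and 2104 in place of 3385 between Stem and Both. By the adjusted p alone, 1327 genes passed between TGF-β and Both, 2310 in the fit of 6 libraries, 2309 with the block and 639 to 2193 with 1 library left out, the lowest without TGF-β replicate 2 and the highest without Stem replicate 2. Depth limited *Thbs4*, and *Spp1* rested on 161 to 285 reads in Stem.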

Other observations

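The genes whose profiles over the 9 libraries lay nearest to each member, among 10898 genes with a mean of at least 100 normalized counts, are given as a description. Nearest to *Postn* were *Col5a3*, a collagen V chain, at a distance of 0.817 log2 units, and *Gna14*, a G protein subunit, at 0.956. *Col5a3* had mean levels of 217, 1150 and 494 normalized counts in Stem, TGF-β and Both. Nearest to *Fn1* were *Fam129a* at 0.101 and *Serpinf1*, the gene of the secreted protein PEDF, at 0.158, with means of *Serpinf1* of 13188, 21875 and 17184. *Sparc* was nearest to *Cars*, a cysteinyl-tRNA synthetase, at 0.193. *Tnxb* was nearest to *Arhgap28* at 0.792 and *Abi3bp*, a matrix protein gene, at 0.823, and *Abi3bp* went from 16933 in Stem to 529 in TGF-β and 543 in Both. *Thbs1* was nearest to *Gpr137b-ps* at 0.112 and to *Fam20c*, a kinase of secreted proteins, at 0.172. For *Tnc* they were *Pear1* at 0.207 and *Man2b1* at 0.208, for *Thbs2* *Etfa* at 0.0621 and *Ttpal* at 0.0827, for *Thbs3* *Calcoco1* at 0.211 and *Tnfaip3* at 0.216, and for *Spp1* *Rhbdf2* at 0.780 and *Rbpms2* at 0.812.

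Receptor and ligand genes for fibronectin moved unevenly. Between Stem and TGF-β, *Itga5* and *Itgb1* rose with *Fn1* (log2 fold changes of 1.38, 0.75 and 0.76), while *Sdc4* fell by 1.91 on the log2 scale. Between TGF-β and Both, *Itga5* and *Fn1* fell by 0.31 and 0.36, and *Itgb1* had 0.10 (edgeR adjusted p = 0.234). Of the 7 macrophage markers, 4 were tested. Between Stem and TGF-β, *Csf1r* and *Cd68* rose by log2 fold changes of 1.41 and 1.86 (edgeR adjusted p = 2.07e-04 and 0.00475), *Cd14* fell by 1.57 (edgeR adjusted p = 4.22e-08), and *Lyz2* had -0.07. Between TGF-β and Both, *Csf1r* and *Lyz2* rose by 0.86 and 0.41 (edgeR adjusted p = 0.0149 and 0.0363), and *Cd68* and *Cd14* had 0.11 and 0.13.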
